A study of Mus musculus with 35 samples.

Results

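Chil3, Chil4, Chil1 and Retnla are 4 of the 21203 genes measured in the brain tissue of mice after closed head injury (CHI), and all 4 encode secreted proteins. They were taken by name from the table of all genes, and each has a single row there. Chil3 (also called Ym1), Chil4 (Ym2) and Chil1 (the mouse counterpart of human CHI3L1) are chitinase-like proteins, which are built like chitinases but do not cut chitin. Retnla (FIZZ1, or RELMα) is a resistin-like, cysteine-rich protein.

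Chil3 and Retnla are textbook genes of alternatively activated, or M2-like, macrophages. In these cells IL-4 or IL-13 binds a receptor that contains IL-4Rα, Janus kinases phosphorylate STAT6, and STAT6 enters the nucleus and binds the promoters of such genes. Chil1 is known from another setting: it is made by reactive astrocytes and by macrophages, and its human counterpart is followed in body fluids as a sign of brain inflammation.

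The mice were male C57BL/6N, 8 to 9 weeks of age at the start, with no engineered allele. Injured mice received PBS, naïve mesenchymal stromal cells (MSCs), or IL-4 MSCs, which are the same MSCs transfected with synthetic IL-4 mRNA, by injection into the left hippocampus on day 5. Tissue was taken at 1 or 3 weeks post-injury (wpi), with 5 mice in each group and 4 in PBS at 3 wpi. The 5 Sham mice were uninjured, 2 taken at 1 week and 3 at 3 weeks; the labels give them as Sham with no treatment, and the methods describe a sham surgery without the impact in one place and no injury or injection in another. The MSCs came from 1 vendor and from the same mouse strain, so reads from grafted and host cells cannot be told apart, and expression of IL-4 from mRNA is transient. The labels name the tissue left cortex, but it was cut around an injection track into the hippocampus, and summed markers of striatum ranged from 227 to 2650 CPM (counts scaled to a common library size by TMM) between libraries. Cortical neuron markers summed to at least 4185 CPM and microglia markers to at least 243 CPM in every library. Each sample title also carries a number that is shared by all mice of a treated group, and by the Sham mice of a week; the sources used here do not say what it marks, and it cannot be told apart from the group. The 34 libraries held 29838423 to 41554322 estimated counts each, at which 3 counts, taken here as the floor, are worth 0.0721 to 0.101 CPM.

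On GRCm38, Chil3 (ENSMUSG00000040809) lies at chr3:106147554-106167564 and Chil4 (ENSMUSG00000063779) at chr3:106201490-106219507, both on the minus strand, with 33.9 kb between them. Chil1 (ENSMUSG00000064246) lies at chr1:134182176-134190181 and Retnla (ENSMUSG00000061100) at chr16:48842551-48844461, both on the plus strand. Retnlg, the nearest relative of Retnla, lies 28.2 kb from it. The promoter windows of RefSeq (build GRCm38.p6), which run from 250 bases before the gene start to 50 after it, were matched for all 4 genes and searched on both strands for TTC and GAA with 4 bases between them (the STAT6 type) or 3 (the general STAT type), and for TTGC and AA with 2 bases between them (the C/EBP type). Only the part before both the RefSeq and the GENCODE start is printed, 5′ to 3′ on the gene's strand, and capitals mark the matches. These sequences are shown because Chil3, Chil4 and Retnla were high in the same 5 libraries. Chil1, shown beside them, also had its highest group mean there, at 25.5 CPM, but rose less (14.5 CPM in PBS and 16.6 in MSCs at 1 wpi).
Chil3, chr3:106167565-106167814, minus strand: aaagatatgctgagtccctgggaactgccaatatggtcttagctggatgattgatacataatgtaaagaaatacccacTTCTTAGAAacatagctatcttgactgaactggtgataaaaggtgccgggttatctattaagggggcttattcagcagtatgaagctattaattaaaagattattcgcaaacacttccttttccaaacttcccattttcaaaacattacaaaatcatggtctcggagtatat
Chil4, chr3:106219508-106219729, minus strand: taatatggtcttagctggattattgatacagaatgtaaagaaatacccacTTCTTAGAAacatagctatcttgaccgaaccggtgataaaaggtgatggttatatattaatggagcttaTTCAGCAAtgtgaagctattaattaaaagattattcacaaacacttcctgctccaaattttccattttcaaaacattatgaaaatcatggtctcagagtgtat
Retnla, chr16:48842359-48842550, plus strand: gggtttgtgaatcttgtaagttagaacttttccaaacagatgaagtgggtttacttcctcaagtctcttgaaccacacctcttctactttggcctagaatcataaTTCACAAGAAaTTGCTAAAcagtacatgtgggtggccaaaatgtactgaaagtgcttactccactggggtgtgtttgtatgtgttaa
Chil1, chr1:134181906-134182155, plus strand: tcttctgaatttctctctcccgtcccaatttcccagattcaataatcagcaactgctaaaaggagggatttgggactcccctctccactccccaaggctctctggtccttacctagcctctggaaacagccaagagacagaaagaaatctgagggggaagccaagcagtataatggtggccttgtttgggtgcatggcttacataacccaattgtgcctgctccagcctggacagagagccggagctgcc

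Chil3 and Chil4 each held 1 general STAT type match, which began 172 bases before the start in both, and Chil4 also held 1 C/EBP type match at 103 bases. Retnla held 1 STAT6 type match at 87 bases and 1 C/EBP type match at 76 bases. Chil1 held none of the motifs in its window, which says only that these letters are not in it. Of 32851 promoter windows of this length, 6.95% held the STAT6 type, 8.30% the general STAT type and 10.8% the C/EBP type. A match of letters is a description and not a measured binding site.

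Chil3 and Chil4 were 95.4% identical over the 1194 aligned bases of their coding sequences, with 55 differing bases, and 30.6% of the stretches of 31 bases in Chil3 transcripts also occurred in Chil4 transcripts. Chil3 and Chil1 were 64.5% identical over their coding sequences and shared no such stretch. Retnla and Retnlg were 86.5% identical over 349 aligned bases, and 5.4% of the 31-base stretches of Retnla occurred in Retnlg. Exons 6 and 7 show the range for Chil3 and Chil4, since among exons of equal coding length in both genes and over 100 bases they have the highest and the lowest share of differing bases. Capitals mark the bases that differ, 10 of 125 in exon 6 and 2 of 124 in exon 7.
Chil3 exon 6, chr3:106155668-106155792, minus strand: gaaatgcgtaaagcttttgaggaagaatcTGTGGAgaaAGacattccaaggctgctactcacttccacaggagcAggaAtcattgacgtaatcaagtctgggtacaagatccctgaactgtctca
Chil4 exon 6, chr3:106205995-106206119, minus strand: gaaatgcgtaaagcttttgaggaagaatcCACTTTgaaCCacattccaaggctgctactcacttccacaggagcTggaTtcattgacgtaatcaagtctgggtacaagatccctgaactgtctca
Chil3 exon 7, chr3:106150118-106150241, minus strand: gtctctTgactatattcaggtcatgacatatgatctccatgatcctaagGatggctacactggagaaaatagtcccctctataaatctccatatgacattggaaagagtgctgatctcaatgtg
Chil4 exon 7, chr3:106204068-106204191, minus strand: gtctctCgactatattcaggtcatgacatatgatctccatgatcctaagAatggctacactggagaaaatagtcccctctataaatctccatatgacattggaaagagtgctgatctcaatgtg

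Reads that fit both paralogs are divided between them by the counting tool, which leaves fractional counts. The sum of Chil3, Chil4 and their relative Chia1 was within 0.02 of a whole number in 34 of 34 libraries, whereas Chil3 alone was in 22 and Chil4 alone in 18. Retnla and Retnlg summed to a whole number in 34 libraries and Retnla alone in 29. Chil1 was whole in 34 of 34.

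Chil3 and Retnla stood high in IL-4 MSCs at 1 wpi and were at 1.32 CPM or lower in every other library. Chil3 reached a mean level of 220 ± 69.7 TPM (a level scaled by transcript length and library size; SD, n = 5) in that group, and 604 of the 21203 genes had a higher mean. On the same scale Retnla had 44.7 ± 10.9 TPM, Chil1 39.8 ± 12.2 TPM and Chil4 0.726 ± 0.329 TPM. Chil1 and Retnla did not differ beyond their spread in that group, while Chil3 lay above both and Chil4 below all 3. In Sham the order was another: Chil1 had 10.03 ± 1.55 TPM, Chil3 had 0.769 ± 0.848 TPM, Retnla 0.306 ± 0.255 TPM and Chil4 0, and Chil3 and Retnla did not differ beyond their spread. TPM of Chil3 is unsafe at a few counts, since 4 counts in 1 Sham mouse gave 2.07 TPM and 7 counts in another gave 0.340 TPM, so the low groups are described below by counts and CPM.

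**Figure D1:**
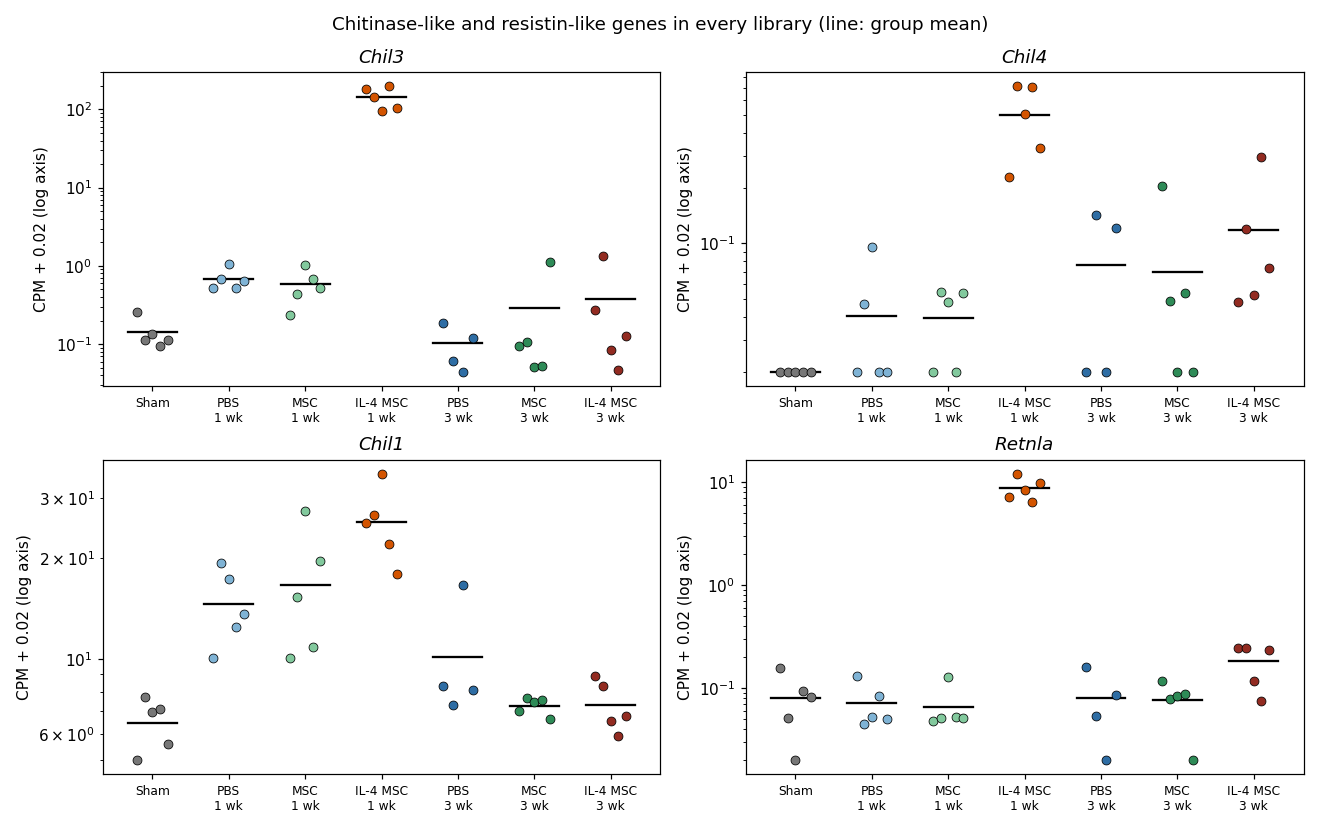
CPM of each gene in each of the 34 libraries by group, on a log axis after adding 0.02, with 1 point per mouse and a line at the group mean; each panel has its own scale. Chil3 lies between 95.2 and 198 CPM in IL-4 MSCs at 1 wpi and at 1.32 CPM or lower in every other library, and Chil1 has 5.00 CPM or more in every library.

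Chil3 was the most abundant of the 4 at 1 wpi with IL-4 MSCs. Its level in the 5 IL-4 MSC mice was 182, 144, 95.2, 198 and 103 CPM, that is 3395 to 6605 estimated counts. With PBS the 5 mice had 0.507, 0.670, 1.05, 0.503 and 0.616 CPM (16 to 32.7 counts). With MSCs alone they had 0.219, 0.421, 1.01, 0.669 and 0.497 CPM. The lowest IL-4 MSC mouse was thus far above the highest mouse of either control (no overlap in this direction for 9.62% of genes over PBS and 7.34% over MSCs), and the PBS and MSC mice overlapped each other. The log2 fold change of Chil3 was 7.74 (SE 0.373) over PBS and 7.98 (SE 0.380) over MSCs, with adjusted p of 6.17e-16 and 6.95e-16 by edgeR's quasi-likelihood test. It was the third highest of 17131 log2 fold changes over PBS and the highest over MSCs. These 2 comparisons share the IL-4 MSC mice.

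Retnla had the same pattern at a lower level. The 5 IL-4 MSC mice at 1 wpi had 7.11, 11.95, 8.37, 6.30 and 9.73 CPM, or 210 to 436 counts. PBS mice had 3.50, 1, 1, 2 and 1 counts and MSC mice 1, 1, 4, 1 and 1 counts, so that most control libraries were at or under the floor of 3 counts. The groups did not overlap. The log2 fold change of Retnla over PBS was 7.42 (SE 0.382, adjusted p = 3.15e-15) and over MSCs 7.43 (SE 0.381, adjusted p = 3.98e-15), the sixth and the third highest of all genes. With the pooled counts, 1498 in IL-4 MSCs and 8 in PBS, the ratio was 187 with a 95% counting interval of 94.6 to 434. Without MSC replicate 3, which held the 4 counts, the log2 fold change over MSCs was 8.03. Outside IL-4 MSCs at 1 wpi Retnla had at most 8 counts in any library, so it passed the filter on low counts only through that group and had to differ there.

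Chil4, the near-copy of Chil3, stayed scarce. In the 5 IL-4 MSC mice at 1 wpi it had 6.40, 25.3, 17.2, 23.1 and 10.7 estimated counts (0.478 ± 0.220 CPM). PBS mice had at most 2.33 counts and MSC mice at most 1.14, with 0 in 3 and 2 of the 5 mice. The groups did not overlap. The log2 fold change was 4.50 (SE 0.805, adjusted p = 1.62e-04) over PBS and 4.50 (SE 0.804, adjusted p = 2.25e-04) over MSCs, and the pooled counts gave a ratio to PBS of 27.3 (95% counting interval 9.01 to 135, 82 against 3 counts). Without PBS replicate 3, which held the 2.33 counts, the log2 fold change over PBS was 5.50. Chil4 made up 0.114 to 0.504% of the Chil3 and Chil4 counts in these mice, and how many of its reads came from Chil3 transcripts was not tested. Chil4 passed the filter on low counts only through this group, so it had to differ there; without any single one of the IL-4 MSC libraries at 1 wpi it no longer passed, apart from replicate 1.

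With the reads of both paralogs added, the pair was higher by 7.71 on the log2 scale over PBS (adjusted p = 1.28e-16) and by 7.94 over MSCs (adjusted p = 1.92e-16). For Retnla and Retnlg added, the values were 6.37 over PBS and 5.47 over MSCs. Retnlg, a resistin-like gene usually associated with neutrophils, itself had 84 to 175 counts in IL-4 MSCs at 1 wpi and 2 to 4 in PBS (log2 fold change 5.10, SE 0.581, adjusted p = 7.33e-08), and took 20.1 to 36.1% of the Retnla and Retnlg counts. Outside that group only MSC replicate 1 at 1 wpi (16 counts) and MSC replicate 5 at 3 wpi (24) reached 10 counts of Retnlg. Retnlg thus passed the filter on low counts only through IL-4 MSCs at 1 wpi and had to differ there.

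**Figure D2:**
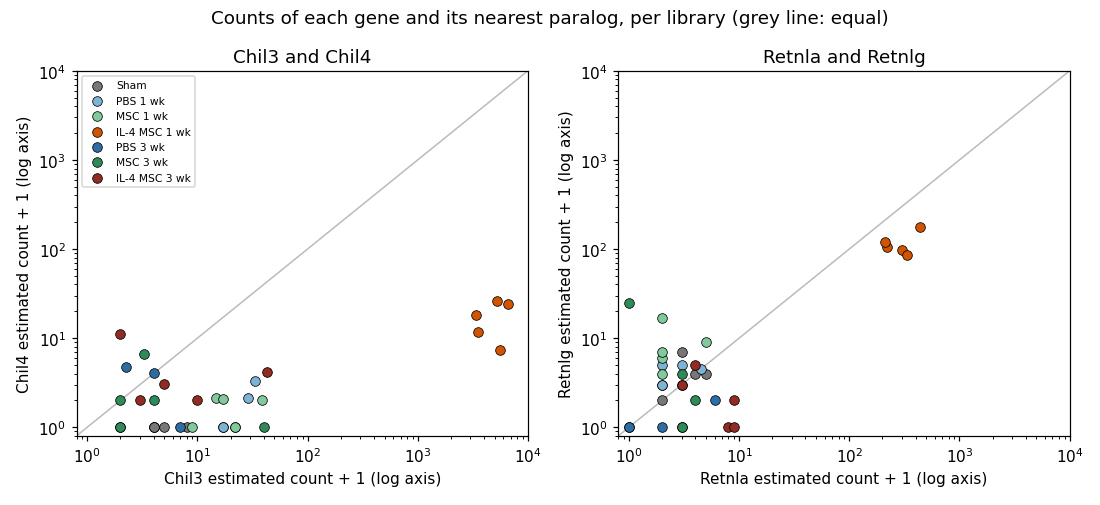
Estimated counts of Chil4 against Chil3 and of Retnlg against Retnla, plus 1, on log axes, with 1 point per library coloured by group and a grey line where both are equal. The 5 IL-4 MSC libraries at 1 wpi hold 3395 to 6605 Chil3 counts beside 6.40 to 25.3 of Chil4, and 210 to 436 Retnla counts beside 84 to 175 of Retnlg.

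Chil1 behaved differently, with a level well over the floor in all 34 libraries and a smaller rise that was already present with PBS. Sham mice had 5.00, 7.67, 6.96, 7.09 and 5.56 CPM. At 1 wpi PBS mice had 10.02, 19.3, 17.3, 12.4 and 13.6 CPM, all above the highest Sham mouse (no overlap in this direction for 6.54% of genes). The MSC mice had 10.02, 15.2, 27.4, 10.9 and 19.6 CPM, also all above Sham (as for 8.44% of genes) and spread more widely than PBS. In IL-4 MSC mice Chil1 was at 25.4, 26.9, 35.5, 22.0 and 17.8 CPM, where the lowest mouse lay within the range of PBS and MSCs. Over Sham, Chil1 had log2 fold changes of 1.17 (SE 0.242, adjusted p = 8.41e-04) with PBS, 1.36 (SE 0.241, adjusted p = 9.72e-05) with MSCs and 1.98 (SE 0.241, adjusted p = 5.89e-08) with IL-4 MSCs. Between treatments, the log2 fold change was 0.81 (SE 0.228, adjusted p = 0.0122) for IL-4 MSCs over PBS, 0.62 (SE 0.227, adjusted p = 0.0977) over MSCs, which missed the threshold, and 0.19 for MSCs over PBS (95% interval -0.28 to 0.66, adjusted p = 0.996). Without IL-4 MSC replicate 3, the mouse with 35.5 CPM, the adjusted p over PBS became 0.0507 with a log2 fold change of 0.68. Over MSCs it became 0.00587 (log2 fold change 0.89) without MSC replicate 3 and 0.0435 (0.73) without IL-4 MSC replicate 5, while MSCs minus PBS turned to -0.07 without MSC replicate 3.

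Counted together, 4 of the 4 rose with IL-4 MSCs over PBS at 1 wpi, where 11.2% of all genes tested were called higher, and 3 of 4 were higher than in MSCs, where 7.66% were. Chil4 and Retnla are in these counts because the filter let them in through IL-4 MSCs at 1 wpi, so the counts are a description and nothing is read from them against the shares; Chil3 and Chil1 passed the filter in other groups too, and both were called over PBS. None differed between MSCs and PBS, a comparison in which 0.123% of genes were called. Against Sham, 4 of 4 were higher in IL-4 MSCs (18.4% of all genes), and 1 of 4, Chil1, in PBS (8.73%) and in MSCs (11.0%). In bulk tissue, fewer cells of a type and less RNA per cell cannot be told apart, which holds for every difference given here.

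Without IL-4, Chil3 had larger log2 fold changes over Sham than Chil1, with larger errors. Sham mice had 7, 3, 4, 3 and 3 counts of Chil3, and all 5 PBS mice at 1 wpi were above them (the 6.54% given above). The log2 fold change was 2.47 (SE 0.860) with an adjusted p of 0.0520, just outside the threshold, and for MSCs over Sham it was 2.24 (SE 0.891, adjusted p = 0.0820) with overlapping mice, 8 to 38.0 counts against 3 to 7. The Chil3 and Chil4 sum passed for PBS over Sham (2.51, adjusted p = 0.0320), as did Chil3 alone by DESeq2 (2.47, adjusted p = 0.0231). With IL-4 MSCs, Chil3 was 10.2 log2 units over Sham (SE 0.463, adjusted p = 1.07e-16), which was the highest of all genes tested, and Retnla 7.12 (SE 0.370, adjusted p = 1.22e-15). Chil4 was at 0 in 5 of 5 Sham mice, so that IL-4 MSCs at 1 wpi were at least 5.36-fold higher, taking 3 counts per library as the level in Sham. For Retnla in PBS and MSCs, and for Chil4 in both, neither group exceeded the floor by its median, and a difference from Sham was not detectable at this depth.

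**Figure D3:**
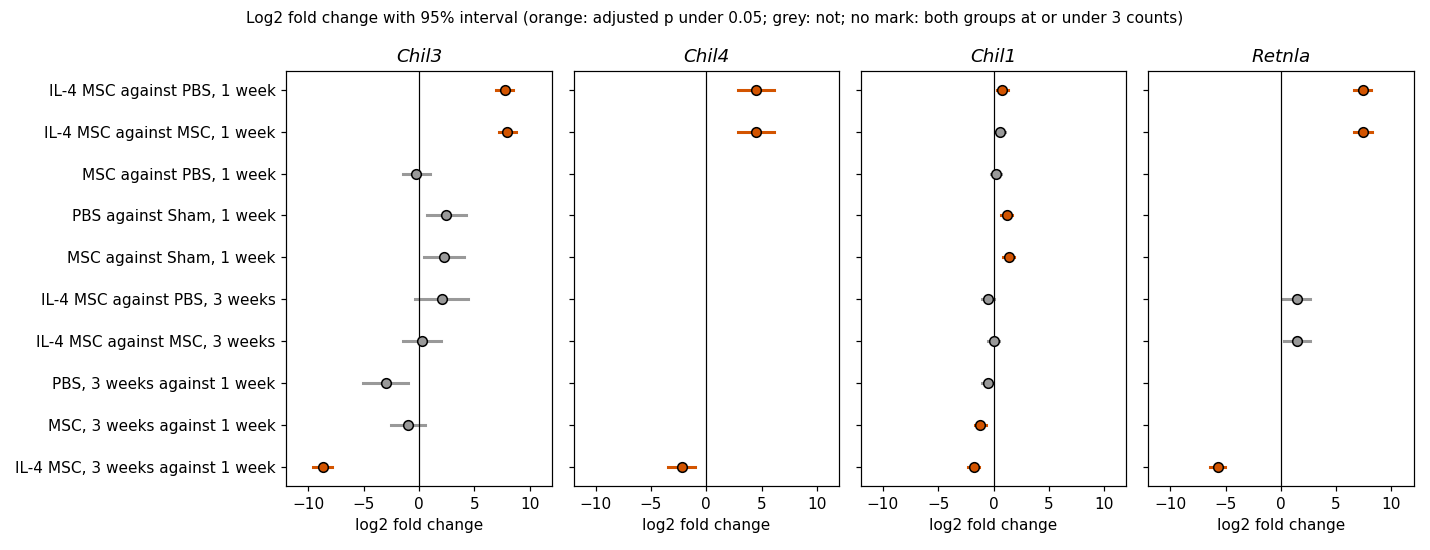
Log2 fold change of each gene in 10 comparisons with its 95% interval from the fit of all libraries; orange marks an adjusted p under 0.05, grey marks one that missed it, and a comparison where the median of both groups was at or under 3 counts has no mark. Chil3 and Retnla lie above 7 for IL-4 MSCs over PBS and over MSCs at 1 wpi, while no gene has an orange mark in the treatment comparisons at 3 wpi.

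By 3 wpi the 3 genes with the steepest rise had fallen back. In IL-4 MSC mice Chil3 had 9, 41.9, 2, 1 and 4 counts, against 3395 or more at 1 wpi, and the log2 fold change from 1 to 3 weeks was -8.72 (SE 0.406, adjusted p = 2.33e-16). Retnla had 8, 7, 3, 2 and 8 counts and fell by 5.71 (SE 0.321, adjusted p = 1.91e-14). Neither gene's weeks overlapped, as for 13.9% of genes in this direction. Chil4 had 1, 3.14, 1, 10.1 and 2.02 counts and fell by 2.24 (SE 0.595, adjusted p = 0.00429), but the mouse with 10.1 counts, replicate 4, reached into the range at 1 wpi, and without it the change was -3.14. Chil1 fell to 8.86, 8.32, 6.51, 5.87 and 6.74 CPM, with no overlap, by 1.81 (SE 0.239, adjusted p = 3.40e-07). In that group 4 of the 4 genes fell, where 16.6% of all genes tested did, and for Chil4 and Retnla the filter built in that fall. Striatum markers differed between the weeks in this group as well, with 9 of 13 higher at 3 wpi (median log2 fold change 1.28). With their score as a covariate, all 4 falls kept their calls.

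Chil1 also fell from 1 to 3 wpi in MSC mice, to 6.99, 7.62, 7.45, 7.55 and 6.62 CPM, without overlap, as for 3.79% of genes (log2 fold change -1.20, SE 0.240, adjusted p = 0.00133). It was the 1 of 4 genes called lower there, where 4.93% of all genes were. In PBS mice Chil1 was at 8.32, 7.31, 16.6 and 8.09 CPM at 3 wpi, and the change of -0.52 (SE 0.250, adjusted p = 0.290) missed the threshold. Without replicate 3, the mouse with 16.6 CPM, it was -0.88 with an adjusted p of 0.0358. Chil3 in PBS mice went from 16 to 32.7 counts at 1 wpi to 6, 1.25, 1 and 3 counts, with no overlap, as for 5.74% of genes in this direction, and the log2 fold change of -3.02 (SE 1.01) had an adjusted p of 0.0779. In PBS mice 0 of 4 genes were called between weeks, where 5.51% of all genes were.

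No gene of the 4 was called by edgeR in any of the 6 comparisons at 3 wpi, and DESeq2 called none of those with a fold; the shares of all genes called were 2.94% for IL-4 MSCs over PBS, 3.47% over MSCs, 0.0817% for MSCs over PBS, and over Sham 0.0292% for PBS, 1.15% for MSCs and 4.27% for IL-4 MSCs. The first 2 of these shares are 504 and 594 genes (763 and 866 by DESeq2), and striatum markers differed in the same comparisons. They summed to 397 to 2650 CPM in IL-4 MSCs at 3 wpi, 238 to 565 in PBS and 275 to 766 in MSCs. Of the 13 markers, 11 were higher than in PBS (median log2 fold change 2.10) and 10 than in MSCs (1.79). With the striatum score as a covariate 10 genes were called over PBS and 2 over MSCs, and no member with a fold was called at 3 wpi. With only the groups compared, edgeR called 0 genes in both; before adjustment 2431 and 2272 had a p under 0.05. At an unadjusted p under 0.05 by edgeR, Retnla passed in 3 of these comparisons, those of IL-4 MSCs over PBS, MSCs and Sham (log2 fold changes 1.43, 1.49 and 1.41), with 2 to 8 counts per IL-4 MSC mouse against 0 to 5 in the other groups. Chil1 passed in 1, PBS over Sham (0.65). Chil4 passed in the 3 against Sham, whose 5 libraries were at 0, but the median of each group was at or under 3 counts and no fold is given. The intervals stay wide at these counts: for Chil3 in IL-4 MSCs over PBS the log2 fold change was 2.04 with a 95% interval of -0.34 to 4.42, and 0.49 without IL-4 MSC replicate 2.

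The treatment differences at both weeks were compared directly in the same fit. For Retnla the difference of IL-4 MSCs over PBS was 5.99 log2 units larger at 1 than at 3 wpi (SE 1.01, adjusted p = 3.16e-04), and over MSCs 5.94 (SE 0.961, adjusted p = 1.05e-04). Without PBS replicate 1 at 3 wpi, which held 5 counts, the first became 5.10. For Chil1 the difference over PBS was 1.29 larger at 1 wpi (SE 0.342, adjusted p = 0.0216), and 0.93 with an adjusted p of 0.118 without PBS replicate 3 at 3 wpi. For Chil3 the difference over MSCs was 7.72 larger (SE 1.18, adjusted p = 5.23e-05), but 5.44 with an adjusted p of 0.159 without MSC replicate 5 at 3 wpi, and 9.29 without IL-4 MSC replicate 2 at 3 wpi. Over PBS it was 5.70 (SE 2.06, adjusted p = 0.116), and 7.28 with an adjusted p of 0.02004 without IL-4 MSC replicate 2. In these tests 2 of 4 genes were called over PBS, where 3.93% of all genes were called higher, and 2 of 4 over MSCs, where 5.96% were. Retnla is in both counts, and it passed the filter on low counts only through IL-4 MSCs at 1 wpi. The filter therefore built in its difference between the weeks, and nothing is read from these counts against the shares.

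A single mouse of each cell-treated group stood apart in Chil3 at 3 wpi. MSC replicate 5 had 39 counts while the other 4 mice had 1 to 3, and IL-4 MSC replicate 2 had 41.9 while the other 4 had 1 to 9. In MSC replicate 5 the 12 neutrophil markers summed to 126 CPM, against 8.46 to 13.5 CPM in the other 4 mice, and Retnlg had 24 counts while Retnla had 0. Its monocyte and macrophage sum was 140 CPM, against 68.9 to 86.4 CPM in those mice. In IL-4 MSC replicate 2 the neutrophil sum was 13.5 CPM, the monocyte and macrophage sum 115 CPM, the highest of its group, and Retnla had 7 counts beside 0 of Retnlg. Its striatum sum was 397 CPM, where the other 4 mice of the group had 1562 to 2650 CPM. The part of these markers in the Chil3 counts was not tested. With both mice left out, Chil3 in MSC mice fell by 3.31 from 1 to 3 wpi (adjusted p = 0.00637), against -1.005 (adjusted p = 0.527) with them, and without MSC replicate 5 alone by 3.30 (adjusted p = 0.0348).

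Chil3 and Retnla are made by macrophages, and markers of these cells moved with the treatment. The 13 monocyte and macrophage markers, among them Adgre1, Cd68, Ccr2 and Lyz2, summed to 290 to 424 CPM in IL-4 MSCs at 1 wpi, 120 to 195 in PBS, 142 to 225 in MSCs and 44.4 to 82.9 in Sham; 10 of the 13 were called higher over PBS, with a median log2 fold change of 1.59. Lgals3 is in this list and in that of Chil1 below. Per 100 CPM of these markers, Chil3 had 31.3 to 53.6 CPM in IL-4 MSCs and 0.344 to 0.617 in PBS. Retnla had 1.68 to 3.36 against 0.01235 to 0.0847, and for Retnla the filter on low counts built in this gap. The scale depends on the markers summed, which did not move alike. Itgam had a mean of 58.2 CPM in IL-4 MSCs and 58.0 in PBS, while Ms4a4a had 14.2 against 0.834. The part of cell number in the levels of Chil3 and Retnla was not tested. The 9 microglia markers summed to 393 to 495 CPM in IL-4 MSCs and 392 to 519 in PBS, with 1 called higher and 1 lower.

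Neutrophils and eosinophils also make chitinase-like or resistin-like proteins. The neutrophil list summed to 39.5 to 57.7 CPM in IL-4 MSCs and 19.9 to 42.6 in PBS at 1 wpi, overlapping. Of its 9 tested markers 2 were higher, one of them Retnlg, for which the filter on low counts built in the difference. Ly6g and Elane had at most 3 counts in every library. Most of the sum was Lcn2, with means of 31.4 CPM in IL-4 MSCs and 15.4 in PBS. The listed markers did not move alike: Mmp8 had 1.21 against 0.295 CPM and Cxcr2 8.84 against 7.91. S100a8 had 1.02 against 1.65 and S100a9 1.42 against 2.01. The 8 eosinophil markers summed to 5.01 to 6.78 CPM against 1.92 to 3.80, with 3 of 4 tested markers higher, while Prg3, Ear1 and Ear6 had at most 3 counts in every library. Of the mast cell list 0 of 2 tested markers were called, and it summed to 36.2 to 43.5 CPM against 44.6 to 56.8. That sum was almost only Kit, with means of 39.2 and 50.4 CPM. Every other listed marker had a mean of 0.202 CPM or lower in both groups, so the sum does not measure mast cells. The part of these cell types in the results was not tested.

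**Figure D4:**
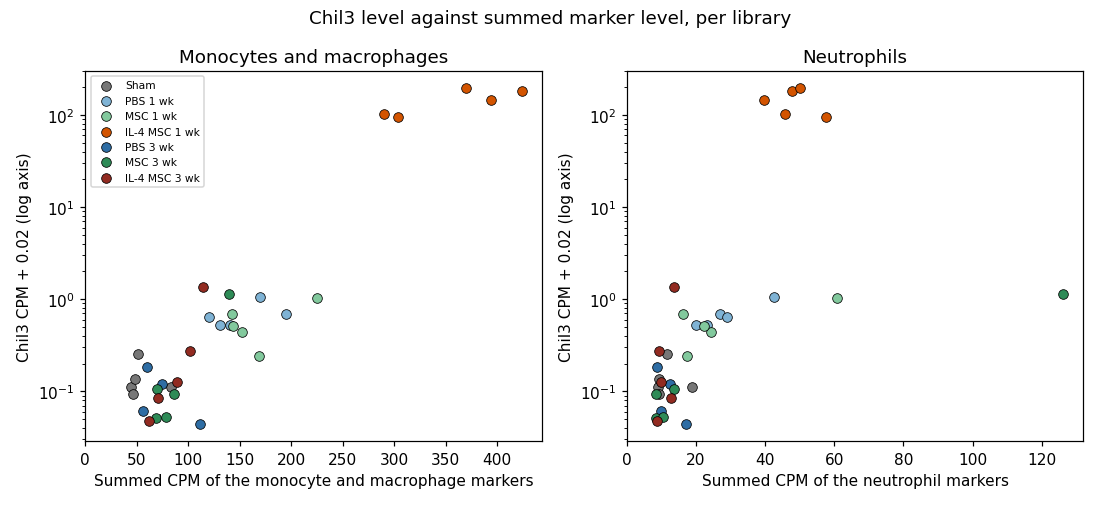
Chil3 CPM plus 0.02 on a log axis against the summed CPM of 13 monocyte and macrophage markers and of 12 neutrophil markers, with 1 point per library coloured by group. The 5 IL-4 MSC libraries at 1 wpi stand at 290 to 424 CPM of macrophage markers, and MSC replicate 5 at 3 wpi stands alone at 126 CPM of neutrophil markers with 1.12 CPM of Chil3.

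For Chil1 the accompanying markers were those of injury. The 10 astrocyte markers, among them Gfap, Aqp4 and Vim, summed to 5938 to 6426 CPM in PBS at 1 wpi and 4782 to 5304 CPM in Sham without overlap, with 7 of 10 called higher. Between IL-4 MSCs and PBS the astrocyte sums overlapped, at 5724 to 6530 CPM against 5938 to 6426, with 2 markers higher and 1 lower. The largest part of the sum was Slc1a2, with means of 3209 CPM in IL-4 MSCs and 3806 in PBS. S100b was also lower by mean, at 75.5 against 77.8 CPM. Gfap (1134 against 945), Vim (254 against 142) and Serpina3n (181 against 109) had higher means, so the sum hides their direction. The macrophage list, with 11 of 13 markers higher in PBS than in Sham, moved with Chil1 as well, and the part of either cell type was not tested.

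The IL-4 and STAT6 axis was listed with receptors, kinases, STAT6 itself and genes that act in or after the signal, such as the feedback inhibitor Socs1. Of the 16 genes of the IL-4 and STAT6 axis 14 were tested, and IL-4 MSCs over PBS at 1 wpi had 11 higher and 0 lower, with a median log2 fold change of 0.60 over those tested against 0.00 over all genes. They included Il13ra2, a decoy receptor for IL-13, at 2.49 (SE 0.426, adjusted p = 5.78e-05), Il2rg, the common γ chain, at 1.96 (SE 0.306, adjusted p = 1.48e-05) and Il4ra, the receptor's IL-4 binding chain, at 1.62 (SE 0.225, adjusted p = 2.19e-06). Il4ra had 37.3 ± 4.90 CPM with IL-4 MSCs and 12.1 ± 1.55 CPM with PBS (SD, n = 5). From 1 to 3 wpi 11 of these genes fell in IL-4 MSCs, and at 3 wpi 1 was higher than in PBS.

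Most other listed genes of alternative activation moved with Chil3 and Retnla. Of 24 tested, IL-4 MSCs over PBS at 1 wpi had 17 higher and 0 lower, where 11.2% of all genes tested were called higher. The list's median log2 fold change was 1.97, against -0.004 over all genes. The steepest of the list were the chemokines Ccl8 at 7.63 (SE 0.415, adjusted p = 1.21e-14) and Ccl24 at 6.37 (SE 0.284, adjusted p = 2.04e-16), and the arginine-degrading enzyme Arg1 at 5.94 (SE 0.448, adjusted p = 1.97e-11). Not called were Ccl17 (-0.44), Ccl22 (0.28), Egr2 (0.23), Il1rn (0.30), Msr1 (0.76), Cd36 (0.59) and Matk (-0.0053). Arg1, at 146 ± 23.5 CPM, stood beside 144 ± 45.9 CPM of Chil3, and Arg1 was called in PBS over Sham (3.63, SE 0.852, adjusted p = 0.00315). In IL-4 MSCs 20 of the 24 fell by 3 wpi, and 0 differed from PBS there.

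Of 10 listed chitinases, chitinase-like and resistin-like genes 7 were tested, and 2 were higher over PBS: Retnlg, given above, and Ctbs, a lysosomal chitobiase, at 0.21 (SE 0.0540, adjusted p = 0.00667). For Retnlg the filter on low counts built in this difference. Chia1, the acidic chitinase summed with Chil3 and Chil4 above, was at 0.05 (adjusted p = 0.894), and Retn, the gene of resistin, at 0.04 (adjusted p = 0.910). In IL-4 MSC replicate 4 at 3 wpi, for example, Chil3 had 1 count while Chil4 (10.0886) and Chia1 (114.911) were fractional. The list's median log2 fold change was 0.05.

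The list of receptors and signals linked to Chil1 showed a change with injury. Of 11 tested, 6 were higher and 0 lower in PBS than in Sham at 1 wpi, with a median log2 fold change of 0.46 against -0.01 over all genes. Lgals3, the gene of galectin-3, was at 3.58 (SE 0.461, adjusted p = 1.41e-06), the cytokine gene Il1b at 3.32 (SE 0.908, adjusted p = 0.0118) and Cd44, a cell surface receptor, at 1.78 (SE 0.207, adjusted p = 2.61e-07). Over PBS, IL-4 MSCs had 7 of the 11 higher, among them Lgals3 (2.72, adjusted p = 3.32e-07) and Cd44 (0.88, adjusted p = 0.00103), while Il1b was at -0.46 (adjusted p = 0.732). Tmem219, a membrane protein listed as a partner of Chil1, had 0.18 (adjusted p = 0.197) in PBS over Sham. Il13ra2, which is in this list and in that of the IL-4 and STAT6 axis, had 0.10 there (adjusted p = 0.939). Its rise over PBS with IL-4 MSCs, given above, is 1 of the 7.

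**Figure D5:**
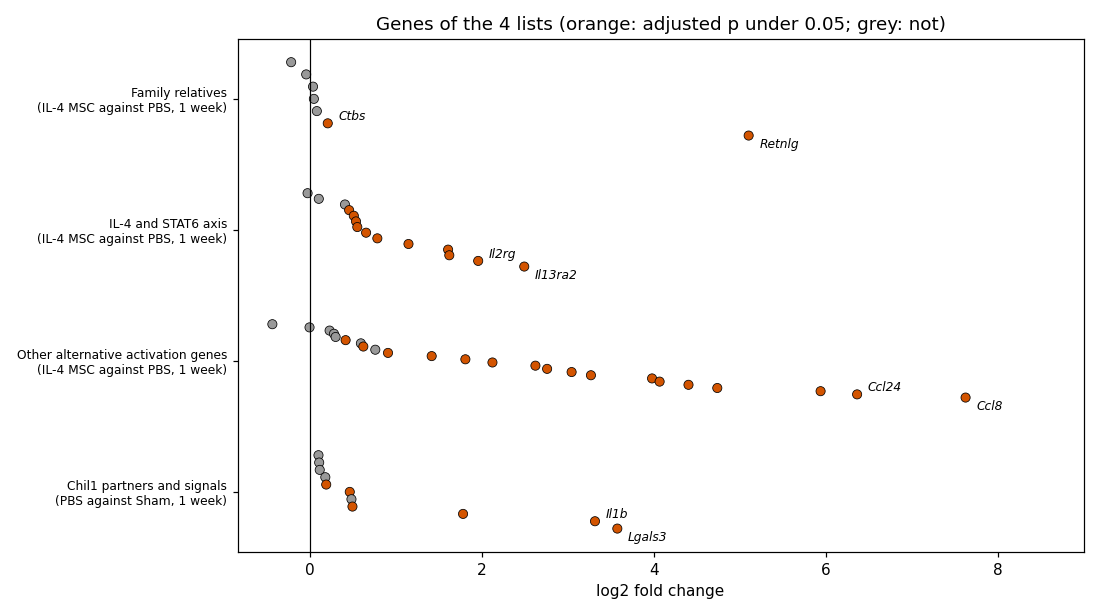
Log2 fold change of every tested gene of 4 lists, in IL-4 MSCs over PBS at 1 wpi or, for the Chil1 list, in PBS over Sham at 1 wpi; each point is a gene, orange where the adjusted p was under 0.05, and the 2 highest of each list are named. In the alternative activation list 17 of 24 points are orange, with Ccl8 at 7.63. In the family list Retnlg, which passed the filter on low counts only through IL-4 MSCs at 1 wpi, stands apart at 5.10.

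Over the 34 libraries, the genes whose log2 CPM followed Chil3 most closely by Pearson's r were F7 (0.976), Ccl9 (0.967), Srgn (0.963), Mrc1 (0.962) and Ccl6 (0.961). For Retnla they were Rnase2a (0.961), Msx3 (0.948), Ccl24 (0.946), Mgl2 (0.940) and Tmem26 (0.927), and for Chil4 they were Msx3 (0.846), Cd200r1 (0.821), Ccl24 (0.816), Retnla itself (0.807) and Mgl2 (0.806). These values rest largely on the 5 IL-4 MSC libraries at 1 wpi, which all points of high level share: over the other 29 libraries r was 0.850 for F7 with Chil3, but 0.0734 for Ccl24 with Retnla, where the counts are near the floor. Chil1 followed Add3 (0.923), Cd44 (0.917), Sgpl1 (0.911), Ptx3 (0.911) and S1pr3 (0.907), and over the 29 libraries these stayed between 0.844 and 0.905. Between the members, r was 0.904 for Chil3 and Retnla, 0.752 for Chil3 and Chil1 and 0.581 for Retnla and Chil1. Spearman's rho for these pairs was 0.352, 0.672 and 0.194. Retnla is near the floor outside IL-4 MSCs at 1 wpi, so its r with either gene rests largely on those 5 libraries.

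Within the 5 IL-4 MSC mice at 1 wpi the members did not share an order. Replicate 4 had the highest Chil3 (198 CPM) and the lowest Retnla (6.30 CPM). Replicate 2 had the highest Retnla (11.95 CPM) and Chil4 (0.695 CPM), and replicate 3 the lowest Chil3 (95.2 CPM) with the highest Chil1 (35.5 CPM). The standard deviation was 31.8% of the mean for Chil3, 25.7% for Retnla, 25.8% for Chil1 and 46.0% for Chil4.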

How the data were processed

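RNA of 1 mouse per library was sequenced as 50 bp paired-end reads. Per the labels and methods, the authors trimmed reads with cutadapt (2.4), checked them with FastQC (0.11.8), assigned them to GENCODE protein-coding transcripts of GRCm38 with kallisto (0.46) and tested them with sleuth (0.30) in R (3.6.1). The authors deposited estimated counts and TPM per gene, unscaled between libraries; how reads shared by paralogs are divided affects Chil3, Chil4, Retnla and Retnlg. The 63 columns with the authors' own comparisons were not used, and 1 of the 35 samples, PBS.3WK replicate 5, has no values and was not analysed here.

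Estimated counts were rounded and fitted with edgeR (4.0.16, limma 3.58.1, R 4.3.3) after TMM scaling in 1 model of 34 libraries and 7 groups. filterByExpr (minimum count 10) kept 17131 genes, the 4 members included. Quasi-likelihood tests were two-sided, with Benjamini-Hochberg adjustment over all genes tested in each of 15 comparisons and 3 differences between weeks, and an adjusted p under 0.05 was called. Standard errors are the log2 fold change over the root of F. CPM uses TMM-scaled totals; log2 CPM for correlations has a prior count of 2. No fold is given where both medians were at or under 3 counts. Intervals of pooled counts are exact and, like the floor, cover counting error only. Replicates are separate mice. No pair among all libraries was identical, and log2 CPM correlated at 0.981 to 0.994 over the 66 pairs within groups. Gene places are those of GENCODE on GRCm38, in a release older than the authors' own. Figures and sequences were made with Python 3.11.15. Tested on simulated data for IL-4 MSCs against PBS at 1 week (17036 genes), the fit recovered 86% of 2-fold and 100% of 4-fold changes, with 7 false calls. Changes were placed only in genes well over the floor, and every gene had the same fixed spread. The recovery therefore does not hold for genes near the floor, such as Chil4 and Retnla in most groups.

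Members, lists and tests were chosen with earlier results of these data known. Named genes are the members, the 5 most correlated genes of each, and up to 3 called genes of each list with the largest log2 fold change in IL-4 MSCs against PBS at 1 week, or PBS against Sham at 1 week for the Chil1 list. Retn, Chia1, Tmem219, the alternative activation genes not called, and the neutrophil, eosinophil, mast cell, astrocyte and macrophage marker names were given after their values were seen. Alternatives were RLE scaling, DESeq2 (1.42.0), no filter, only the groups compared, Sham of the same week, a replicate block, a striatum covariate, summed paralogs and leaving out libraries.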

Additional observations from a re-analysis of the deposited data

Results flagged for a closer look

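Among 27 groups of 4 or 5 mice with any spread in a gene, 7 held a mouse set far apart from the rest by Dixon's ratio of gap to range. The threshold flags about 1 in 20 groups of normally distributed values. Most of these groups rest on a few counts, where that rate does not hold, so the 7 mice are listed only as a description. For Chil3 these were Sham replicate 1 at 0.235 CPM (next 0.115), MSC replicate 5 at 3 wpi at 1.12 CPM (next 0.0860) and IL-4 MSC replicate 2 at 3 wpi at 1.32 CPM (next 0.254). For Chil4 they were MSC replicate 1 at 3 wpi at 0.185 CPM and IL-4 MSC replicate 4 at 3 wpi at 0.275 CPM, and for Retnla MSC replicate 3 at 1 wpi at 0.107 CPM, all resting on 4 to 10.1 counts. For Chil1 it was PBS replicate 3 at 3 wpi, at 16.6 CPM with the next mouse at 8.32 CPM.

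The difference between treatments changed from 1 to 3 wpi in 4 direct tests by edgeR. It was larger at 1 wpi by 1.29 log2 units for Chil1 and 5.99 for Retnla in IL-4 MSCs over PBS, and by 7.72 for Chil3 and 5.94 for Retnla in IL-4 MSCs over MSCs. The report gives their errors and the libraries on which those of Chil1 and Chil3 depend. For Retnla the filter on low counts built in the difference, since the gene passed only through IL-4 MSCs at 1 wpi.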

How the results depend on the processing

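With a fold reported, 48 values were compared across alternatives. RLE scaling and no filter on low counts left direction and call as they were in 48 of 48, and sham mice of the same week in 13 of 13. Of 543 values with 1 library left out 525 kept both, and of 341 others 322 did; for those that did not, the cause was not tested. DESeq2 called Chil3 in PBS over Sham (2.47), in MSCs over Sham (2.23), in PBS from 1 to 3 weeks (-3.06) and in the change of IL-4 MSCs over PBS between weeks (5.62, adjusted p = 2.11e-04). With only the groups compared, Chil3 passed in PBS over Sham (2.47, adjusted p = 6.63e-04) and in PBS from 1 to 3 weeks (-3.02, adjusted p = 0.00350), and Chil1 in IL-4 MSCs over MSCs at 3 weeks turned to -0.0013. With the striatum covariate, Chil3 passed over Sham in PBS (2.43, adjusted p = 0.0420) and in MSCs (2.43, adjusted p = 0.0428). The Chil3 and Chil4 sum passed in PBS over Sham (2.51) and between weeks over PBS (5.99) and over MSCs (7.54). With both libraries highest in Chil3 at 3 weeks left out, an alternative chosen after seeing the data, Chil3 passed in MSCs from 1 to 3 weeks (-3.31) and between weeks over PBS (7.28), and 3 values near 0 turned: Chil3 in IL-4 MSCs over Sham at 3 weeks (-0.055), Chil1 in IL-4 MSCs over MSCs at 3 weeks (-0.089) and Chil3 in MSCs over PBS between weeks (0.28).

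With 1 library left out, Chil1 at 1 week ranged from 0.68 to 0.95 in IL-4 MSCs over PBS, from 0.48 to 0.89 over MSCs and from -0.066 to 0.33 in MSCs over PBS. At 3 weeks Chil1 in IL-4 MSCs over MSCs ranged from -0.081 to 0.069, Chil3 there from -1.29 to 2.55, and Chil3 over Sham from -0.055 to 1.82. From 1 to 3 weeks, Chil1 in PBS ranged from -0.88 to -0.39 and Chil3 in MSCs from -3.30 to -0.66. Between weeks, Chil3 ranged from 5.04 to 7.28 over PBS, from 5.44 to 9.29 over MSCs and from -2.67 to 0.28 in MSCs over PBS, and Chil1 from 0.93 to 1.44 over PBS. Chil4 fell under the filter without IL-4 MSC replicate 2, 3, 4 or 5 at 1 week (24 values), and 12 values of Chil3, Chil4 and Retnla could not be tested with only the groups compared.

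Replicate numbers did not pair the mice: 24 of 99 same-numbered pairs of libraries from different groups correlated above 0.1 (median 0.0095), and 6 of 34 libraries correlated best with their own number. With the replicate number as a block, Chil1 in IL-4 MSCs over MSCs at 1 week passed (0.64, adjusted p = 0.0286) and no other call changed. Of the 5 most correlated genes, Spearman's rho kept 1 for Chil3, Chil4 and Retnla and 2 for Chil1. Depth limits Chil4 and Retnla outside IL-4 MSCs at 1 week, where most libraries held at most 3 counts.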
